A study of Mus musculus with 19 samples.

Results

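Naive CD8 T cells were compared with cells of the same antigen receptor that had been taken from malignant liver lesions at days 8 to 9 and carried a low label for 3 surface proteins, PD1, LAG3 and CD39. Both groups were chosen by their titles, 3 libraries each, so that 6 of the 19 RNA-seq libraries of the series enter the comparison. All samples were of C57BL/6 mice. The naive group held transgenic TCR SV40-I cells labelled CD8 and CD44low, and no treatment is given for it. The lesion group, called marker-low here, held TCR SV40-I cells labelled CD8+, Thy1.1+, PD1lo, LAG3lo and CD39lo. The SV40-I receptor is specific for an epitope of SV40 large T antigen, a viral oncoprotein, and Thy1.1 is an allele commonly used to find transferred cells in a host. The event from which the days are counted, the age of the mice and the number of mice behind each library are not given in the labels, and the source field names splenocytes for every sample, the lesion samples included. In the count tables the marker-low columns are headed KO and the naive columns N, while the labels give no genotype. If the headings mark a genotype, its effect cannot be told apart from that of the lesion. A further group of 3 libraries, SV40-I cells of the same lesions and days labelled high for the 3 proteins (marker-high, WT in the headings) serves for a direct comparison with the marker-low cells.

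A naive CD8 T cell recirculates through lymph nodes and is kept alive by signals through its antigen receptor and the interleukin 7 receptor. When its receptor meets antigen, the cell induces immediate early transcription factors, enters the cell cycle, shifts its metabolism, and makes cytokines, chemokines and cytotoxic granules. Inhibitory receptors such as PD1 are induced by the same signal, and in tumours, where antigen persists, their expression and that of the transcription factor TOX accompany loss of function.

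The tables hold whole-number counts per gene. Totals were 41903615 to 48274559 counts in marker-low and 45642986 to 51599398 in naive libraries, and mitochondrially encoded genes took 0.15 to 0.221% and 0.199 to 0.307% of them. Levels are given as CPM, counts scaled to library size with edgeR's normalisation factors, for replicates 1, 2 and 3 in that order, marker-low libraries first. Where a gene had no counts, up to 3 could have been missed, which is 0.0569 to 0.076 CPM depending on the library. Differences are log2 fold changes of marker-low over naive ± SE from edgeR's quasi-likelihood test, and a gene was called higher or lower at a Benjamini-Hochberg adjusted p under 0.05 over all 16404 genes tested. The labels do not say that replicates came from separate mice, so the p-values rest on a spread that may in part be technical.

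The labelled cell type was checked against marker genes. Cd8a (1649, 1111 and 1390.5 CPM, naive 3498, 3471 and 3073 CPM), Cd8b1, Cd3e and Trac were high in all 6 libraries. Marker-low library 2 stood apart. It held the most transcripts of macrophage and neutrophil genes and the least Trac, at 6089, 2829.8 and 5762 CPM in the marker-low libraries. The 10 macrophage and Kupffer cell markers summed to 2062, 8680 and 715.7 CPM in marker-low libraries, against 258.3, 125.7 and 97.96 CPM in naive libraries. The 6 neutrophil markers summed to 506.8, 2955 and 185.9 CPM against 31.16, 23.01 and 7.698 CPM. Lyz2, a lysozyme of myeloid cells, was at 1503, 6444 and 612 CPM against 103, 53.9 and 30.9 CPM, and Clec4f, which defines Kupffer cells, at 39.1, 88.8 and 0 CPM against 0, 0.0217 and 0.876 CPM. Clec4f and Vsig4 were at 0 in marker-low library 3, and Cd163 was at 0 in libraries 1 and 3. All 6 neutrophil markers, 5 of the 10 macrophage markers and 5 of 6 NK and innate markers were called higher. Without marker-low library 2 these counts were 0, 3 and 5. The neutrophil count also fell to 2 without marker-low 1 and 0 without any 1 naive library, and the macrophage count to 3 without naive 1 or 2. Hepatocyte markers were low, with sums of 12.8 to 59.41 CPM in marker-low and 2.816 to 7.288 CPM in naive libraries, and 1 of 13 was called higher (Ahsg). B cell markers summed to 1736 to 2110 against 2783 to 3142 CPM with 1 of 7 called lower (Ighm, not without marker-low 2, naive 1 or naive 3), erythroid and platelet markers summed to 303.6 to 420.9 against 34.27 to 298.2 CPM with no call among 9. The dendritic (74.94 to 203.8 against 4.84 to 12.75 CPM), CD4 T cell (13.98 to 62.23 against 1.961 to 6.529 CPM) and endothelial and stromal lists (167.3 to 213.5 against 210.9 to 366 CPM) gave 1 call each, all higher. The dendritic call was Itgax, which made up most of that sum in marker-low libraries (99.6, 147 and 73.2 CPM). Activated T cells express Itgax too, and it is counted again among the integrins below. Over all genes tested 10.6% were called higher and 6.21% lower. The single calls of the hepatocyte and of the endothelial and stromal lists lay near that share. With the hepatocyte covariate, without the filter on low counts or with the replicate block, 2 to 3 neutrophil and 3 macrophage markers were called. The endothelial call ended without marker-low 2 or any 1 naive library, and the hepatocyte call without any 1 naive library. Cd4 itself was at 5.96, 17.4 and 0 CPM against 2.41, 0.977 and 1.21 CPM. Other settings ended calls for Clec4f in the fit of 6 libraries alone, with the hepatocyte covariate, with the macrophage and neutrophil covariate, without the filter on low counts and with the replicate block (adjusted p of 0.0519 to 0.269) and for Lyz2 with the macrophage and neutrophil covariate (adjusted p = 0.239).

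**Figure D1:**
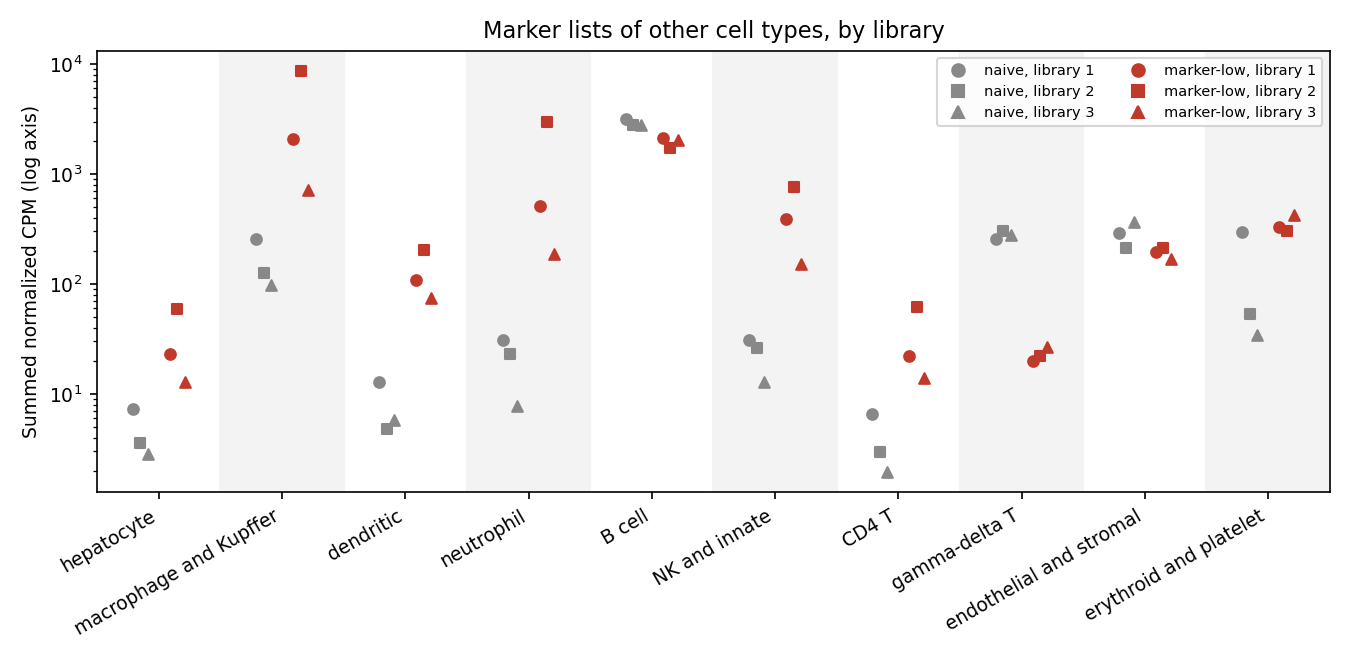
Summed normalised CPM (log axis) of the marker lists of 10 other cell types in each naive (grey) and marker-low (red) library, with a symbol per replicate number. Marker-low library 2 has the highest macrophage (8680 CPM) and neutrophil (2955 CPM) sums. The gamma-delta T sum, which is mostly Trdc in naive libraries, is lower in all 3 marker-low libraries, although the median log2 fold change of its 4 members was 1.01.

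Of 16404 genes, 1736 were higher (10.6%) and 1018 lower (6.21%) in marker-low cells, 2754 in all (16.8%). The median log2 fold change over all genes was 0.09. The 3 marker-low libraries all lay above the naive ones for 19.9% of genes and all below them for 17.3%, and 2626 of the called genes were among these. Among genes called higher, 236 were over 3-fold above both other marker-low libraries in library 2, against 28 in library 1 and 8 in library 3. Without library 2 edgeR called 1253 genes higher and 913 lower, and 1169 and 683 of the original calls were kept. Lower calls were fewer without some other libraries, with 414 without naive 3 (988 higher), 598 without naive 1 (1100 higher), 464 without marker-low 1 and 652 without marker-low 3. With the log2 sum of the macrophage and neutrophil lists as a covariate, an alternative chosen after seeing the data, 794 genes were called higher and 489 lower, and 732 and 347 of the original calls were kept. Both list sums were higher in every marker-low than in every naive library, so this covariate in part follows the comparison itself. A call lost with it, here or below, cannot be assigned to macrophages or neutrophils. Measured as the root mean square difference in log2 CPM over all genes tested, each marker-low library lay on average 1.99 to 2.35 from the naive libraries, 1.54 to 1.74 from the other marker-low libraries and 1.57 to 1.77 from the marker-high libraries.

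List counts are given of the members that passed the filter on low counts. Their background is the share over all genes tested, 10.6% called higher and 6.21% called lower. A count near that share is no result about the list. Of 31 lists of T cell genes, those with the highest medians were chemokines (8.76), cytokines (6.89) and NK-type receptors (6.24), and those with the lowest were transcription factors of naive and memory cells (-1.51) and surface genes of homing and quiescence (-1.02). With genes at 0 in a group set to their bounds, these 3 medians were 8.5, 4.51 and 5.87, and the sort markers (5.25) and mitosis genes (5.13) lay above the cytokines. No list was tested as a set.

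**Figure D2:**
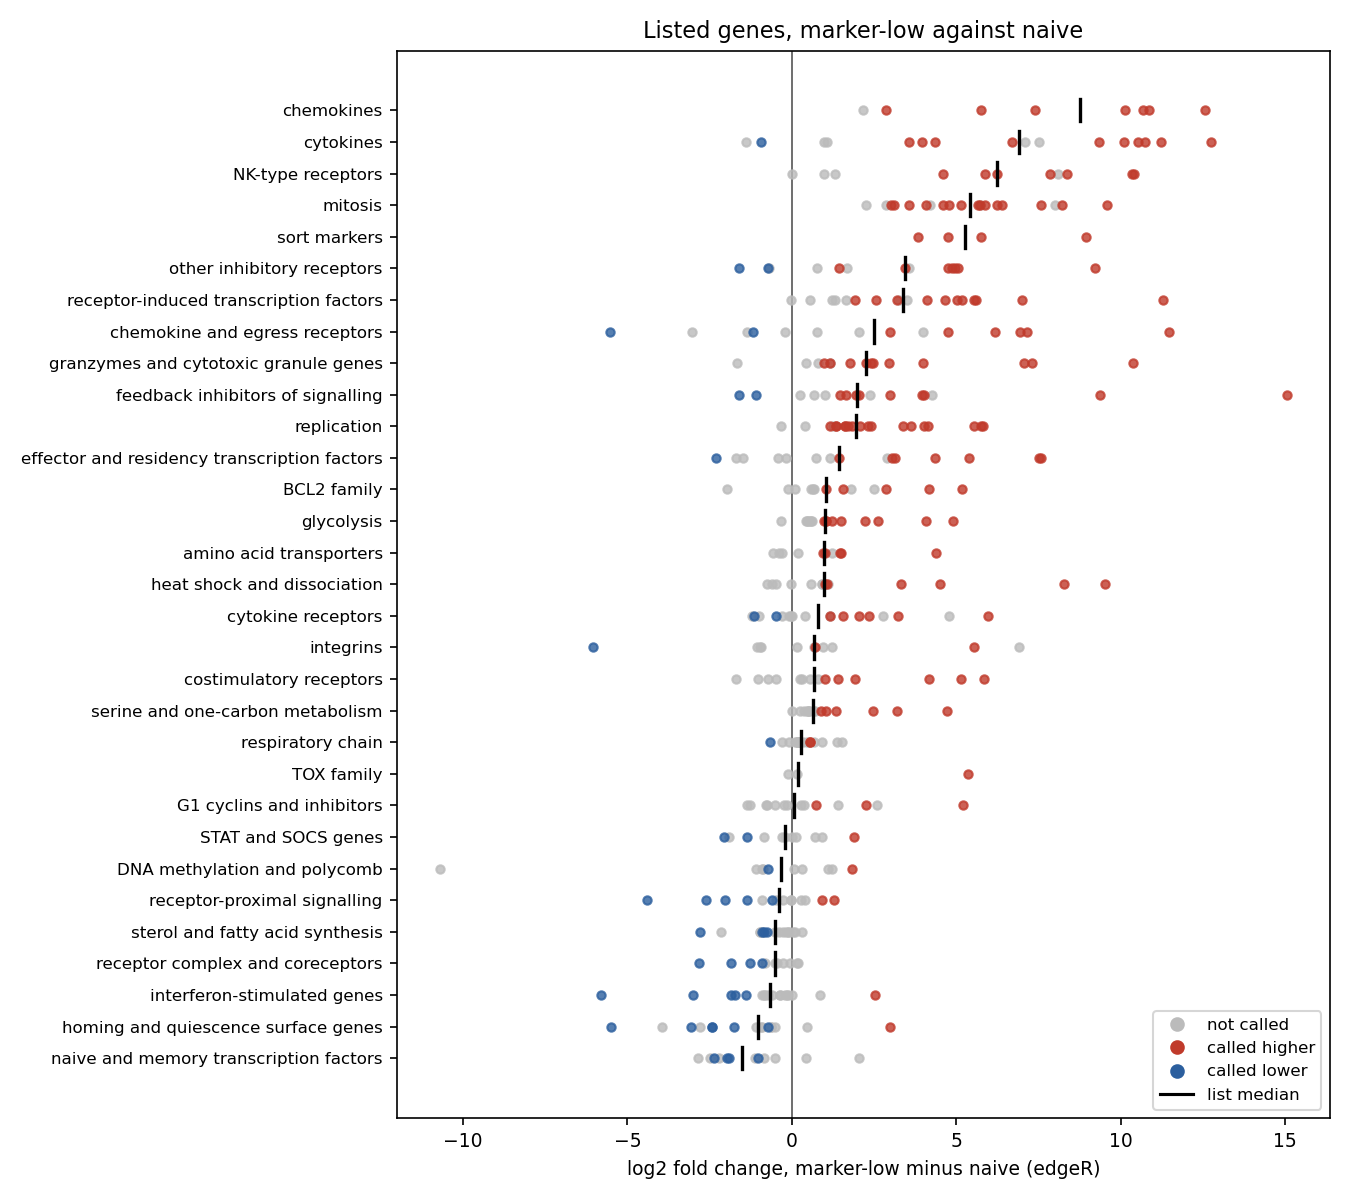
Each dot is a gene of one of 31 T cell lists, placed at its log2 fold change of marker-low over naive, red where called higher, blue where called lower and grey where not called. Black bars are list medians, from 8.76 for chemokines down to -1.51 for transcription factors of naive and memory cells.

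Tox did not pass the test. It was at 132, 101 and 48 CPM against 91.7, 89.5 and 124 CPM (-0.12 ± 0.34, adjusted p = 0.854), and the libraries of the groups overlapped, with marker-low library 3 lowest. In marker-high cells it was at 358, 571 and 731 CPM. Tox counts cover the whole gene, so they cannot tell whether some of its exons are missing. Of the other family members, Tox2 was near 0 in naive cells and low in marker-low cells, at 0.304, 0.817 and 0.061 CPM against 0, 0.0217 and 0 CPM, and was called higher (ratio 57.5, 95% counting interval 9.89 to 2314, adjusted p = 0.017). That call ended without marker-low 2, naive 1 or naive 3, adjusted p 0.0512 to 0.0696. Tox4 did not pass the test (0.17 ± 0.22, adjusted p = 0.649) and Tox3 was below the filter on low counts. Calls also ended for Tox2 with the hepatocyte covariate and with the macrophage and neutrophil covariate (adjusted p of 0.0591 to 0.135).

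The genes of the proteins named in the sort labels describe the gate and are no independent finding. Pdcd1, which encodes PD1, was nonetheless at 695, 507 and 365 CPM against 5.12, 11.2 and 12.7 CPM (5.75 ± 0.43, adjusted p = 4.93e-06), so cells labelled low for PD1 lay far above naive cells at the level of its transcript. Lag3 was at 20.3, 12.4 and 11.7 CPM against 0.038, 0.0434 and 0 CPM and Entpd1, which encodes CD39, at 42, 53.7 and 12.7 CPM against 2.16, 4.23 and 1.25 CPM, with differences of 8.95 ± 0.67 and 3.83 ± 0.56. Cd44, the adhesion receptor by which naive cells were gated, was at 99, 231 and 134 CPM against 10.3, 0.846 and 5.95 CPM (4.76 ± 0.68). For all 4 genes the libraries did not overlap.

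Other inhibitory receptors were mostly higher, 7 of 13 called higher and 2 lower (median 3.45), against 10.6% and 6.21% of all genes. Tigit, a receptor for nectin family ligands, was at 45.9, 27.4 and 53.1 CPM against 0.0569, 0.109 and 0.0417 CPM (9.21 ± 0.59, adjusted p = 1.70e-06). Every marker-low library was over 27 CPM and every naive library near the limit of a few counts. Ctla4, which competes with CD28 for its ligands, was at 122, 86.5 and 121 CPM against 2.28, 4.6 and 3.07 CPM (5.05 ± 0.56, adjusted p = 8.53e-05), and Cd160 at 518, 209.8 and 500.0 CPM against 28.7, 58.6 and 25.2 CPM (3.45 ± 0.42, adjusted p = 0.000168). Havcr2, which encodes TIM3, was called higher from a low level (8.54, 17.4 and 2.34 CPM against 0.987, 0.0434 and 0 CPM; 4.74 ± 1.21, adjusted p = 0.0189). Cd5, a negative regulator of receptor signalling, was higher by 1.45 ± 0.22. Lower were Cd96 (-1.62 ± 0.42, adjusted p = 0.0212) and Vsir, which encodes VISTA (-0.73 ± 0.22, adjusted p = 0.0363), and Btla did not pass the test (-0.70 ± 0.60, adjusted p = 0.447). Without marker-low library 2, 5 were called higher. The calls of lower genes held less well, with 0 without marker-low 1, naive 1 or naive 3 and 1 without marker-low 2 or marker-low 3, in the fit of 6 libraries alone, with the hepatocyte covariate, with the macrophage and neutrophil covariate or with the replicate block. The Havcr2 call ended without marker-low 2, naive 2 or naive 3, adjusted p 0.0507 to 0.0622. Calls were lost too for Cd96 with the macrophage and neutrophil covariate (adjusted p = 0.153), for Havcr2 in the fit of 6 libraries alone and with the macrophage and neutrophil covariate (adjusted p of 0.0971 to 0.195) and for Vsir in the fit of 6 libraries alone, with the hepatocyte covariate and with the replicate block (adjusted p of 0.0545 to 0.069).

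**Figure D3:**
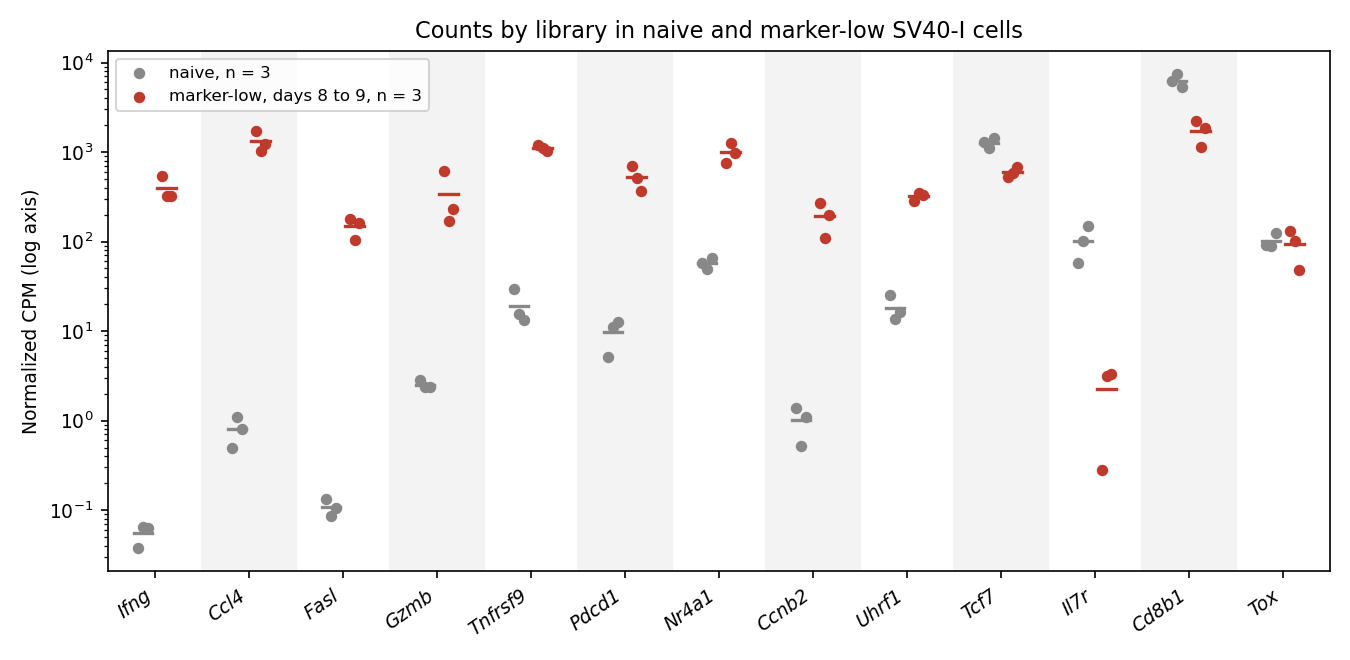
Normalised CPM (log axis) of 13 genes in each naive (grey) and marker-low (red) library, with bars at group means. For all but Tox the 3 marker-low libraries lie apart from the 3 naive ones, above them for Ifng through Uhrf1 and below them for Tcf7, Il7r and Cd8b1, although the difference of Tcf7 did not pass the test.

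Transcription factors induced by receptor signalling were higher in 11 of 18 cases and lower in none (median 3.38), and the count was 11 without library 2 as well and 10 to 13 over all alternatives run. Nr4a1, an orphan nuclear receptor whose level follows receptor signal strength, was at 751, 1268 and 971 CPM against 56.9, 49.7 and 65.8 CPM (4.12 ± 0.49, adjusted p = 0.000145). Its lowest marker-low library exceeded its highest naive library more than 11-fold. Irf8 was at 516, 1015 and 492 CPM against 28.6, 6.81 and 8.32 CPM (5.53 ± 0.62, adjusted p = 9.91e-05), Irf4 at 117, 257 and 163 CPM against 5.75, 6.16 and 9.22 CPM (4.67 ± 0.81, adjusted p = 0.00228) and Bhlhe40 at 134, 195 and 64.3 CPM against 5.43, 3.02 and 3.69 CPM (5.02 ± 0.40, adjusted p = 7.38e-06). Irf8 and Bhlhe40 are also made by myeloid cells, and both were highest in library 2. Myc, which drives growth and division, was at 483, 686 and 724 CPM against 165, 175 and 156 CPM (1.93 ± 0.25, adjusted p = 0.0003). Among immediate early genes, Egr2 (3.20 ± 0.75), Fos (5.60 ± 1.00) and Fosb (5.16 ± 1.01) were called, whereas Egr1 (1.30 ± 0.47, adjusted p = 0.0737), Junb (1.21 ± 0.56, adjusted p = 0.156) and Jun (1.64 ± 0.74, adjusted p = 0.144) did not overlap between groups but did not pass the test. Egr1 passed in DESeq2 (adjusted p = 0.033), in the fit of 6 libraries alone (adjusted p = 0.0346) and with the macrophage and neutrophil covariate (adjusted p = 0.0145). The call of Egr2 ended without naive 2 or naive 3, adjusted p 0.0502 to 0.0533. Nr4a2 was at 0 in every naive library and at 5.63, 7.53 and 7.5 CPM in marker-low libraries, at least 340.4-fold higher against a floor of 3 counts over the naive group. Batf (0.55 ± 0.35, adjusted p = 0.29) and Nfatc1 (-0.019 ± 0.28, adjusted p = 0.98) did not pass the test. Under other settings calls ended for Fos with the macrophage and neutrophil covariate (adjusted p = 0.0536).

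Feedback inhibitors of signalling were called higher in 9 of 16 cases and lower in 2 (median 1.98), against 10.6% and 6.21% of all genes. The count called higher was 5 with the macrophage and neutrophil covariate. Spry1, which restrains Ras signalling, was at 83.5, 106 and 96.9 CPM with no count in any naive library, at least 4706-fold higher (adjusted p = 0.000106). Rgs16, a regulator of G protein signalling, was at 134, 159 and 85.9 CPM against 0, 0.0868 and 0.48 CPM (9.38 ± 1.19, adjusted p = 0.000231). Dgkz, a diacylglycerol kinase, was higher by 1.94 ± 0.27 and its relative Dgka lower (-1.08 ± 0.16). Among MAP kinase phosphatases Dusp5 (2.03 ± 0.37) and Dusp6 (1.65 ± 0.36) were higher and Dusp10 was lower (-1.61 ± 0.21). Cblb, a ubiquitin ligase that limits activation, was higher by 1.48 ± 0.29. Among the remaining alternatives calls ended for Cblb and Dusp6 with the macrophage and neutrophil covariate (adjusted p of 0.0686 to 0.093).

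Cytokine genes were called higher in 10 of 16 cases and lower in 1, against 10.6% and 6.21% of all genes. Ifng, which encodes interferon gamma, was at 538, 322 and 326 CPM in marker-low and at 0.038, 0.0651 and 0.0626 CPM in naive libraries (12.75 ± 0.91, adjusted p = 3.37e-06). Naive cells thus had at most a few counts, and the fitted fold depends on the prior count. Tnf was at 175, 202 and 175 CPM against 8.48, 17.1 and 9.78 CPM (3.96 ± 0.50, adjusted p = 0.000238), and its 3 marker-low libraries lay closer together than those of Ifng. Il2, the growth factor of T cells, was at 32, 18.8 and 21.8 CPM against 0, 0 and 0.104 CPM (9.35 ± 1.38, adjusted p = 0.000639). Csf2, which encodes GM-CSF, was at 7.1, 6.41 and 6.32 CPM with no naive count, at least 322-fold higher, and Tnfsf14, also known as LIGHT, at 129, 176 and 144 CPM against 1.46, 1.15 and 1.69 CPM (6.70 ± 0.50, adjusted p = 5.03e-06). Il10 was called from levels under 1 CPM. Il16 was lower (-0.93 ± 0.20, adjusted p = 0.00871), and Ltb (-1.39 ± 0.49, adjusted p = 0.069) and Lta (0.96 ± 0.86, adjusted p = 0.469) did not pass the test, although both did in the fit of 6 libraries alone (adjusted p = 0.0235 and 0.0325). Ltb also passed with all 19 libraries, in DESeq2 and with a stricter filter (adjusted p of 0.0185 to 0.0462). The count called higher was 7 without marker-low library 2, 5 with the macrophage and neutrophil covariate and 6 with the hepatocyte covariate. Further losses of a call came for Il16 with the macrophage and neutrophil covariate (adjusted p = 0.0981).

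Of 8 chemokine genes, 7 were higher and none lower. Ccl4 was at 1738, 1017 and 1223 CPM against 0.493, 1.11 and 0.814 CPM (10.69 ± 0.43, adjusted p = 3.34e-08) and Ccl3 at 630.4, 296 and 301 CPM against 0.342, 0.239 and 0.0626 CPM (10.87 ± 0.63, adjusted p = 9.26e-07). Both are attractants of T cells and myeloid cells. Xcl1, which attracts cross-presenting dendritic cells, was at 761, 426 and 553 CPM against 0.607, 0.76 and 0.188 CPM (10.12 ± 1.44, adjusted p = 0.000539), and Ccl5 at 559, 153 and 371 CPM against 7.04, 9.87 and 3.07 CPM (5.76 ± 0.76, adjusted p = 0.000314). Ccl9 was highest in library 2, at 95.4, 333 and 59.2 CPM against 0.797, 1.5 and 0.584 CPM. Ccl1 ran from 33.9, 14.8 and 2.26 CPM in the marker-low libraries to no count in naive cells (at least 773-fold higher, adjusted p = 0.0255), so its level differed over 10-fold among marker-low libraries and its call ended without marker-low 1 or any 1 naive library, adjusted p 0.0571 to 0.0783. Other settings ended calls for Ccl1 with the macrophage and neutrophil covariate and without the filter on low counts (adjusted p of 0.0524 to 0.0936).

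Chemokine and egress receptors moved both ways, 6 of 14 higher and 2 lower, against 10.6% and 6.21% of all genes. The count called higher was 3 without marker-low 2 or any 1 naive library, with the hepatocyte covariate or with the macrophage and neutrophil covariate, and that called lower 1 without marker-low 1, marker-low 3 or naive 3 or without the filter on low counts. Cxcr3, the receptor for interferon-induced chemokines, was at 1155, 544 and 884 CPM against 15.2, 71.3 and 10.5 CPM (4.73 ± 0.62, adjusted p = 0.000303). Cx3cr1 was highest in library 2, at 4.33, 75 and 2.26 CPM against 0, 0 and 0.0209 CPM (ratio 4094, 95% counting interval 734 to 161740.0), and was called higher with and without that library. Ccr9, which directs cells to the gut, was at 2.46, 21 and 0.975 CPM against 333, 328 and 465 CPM (-5.52 ± 1.49, adjusted p = 0.0245), a call that ended without marker-low 1, marker-low 3 or naive 3, adjusted p 0.0627 to 0.0871. S1pr4 was lower (-1.20 ± 0.27), and S1pr1, which lets cells leave lymphoid tissue, was at 191, 202 and 190.0 CPM against 1459, 1127 and 1491 CPM without passing the test (-2.80 ± 0.97, adjusted p = 0.0637). It passed when the 6 libraries were fitted alone (-2.85, adjusted p = 0.000775). It also passed with all 19 libraries, with the hepatocyte covariate and with a stricter filter (adjusted p of 0.0383 to 0.048). Cxcr6, a receptor of tissue-resident cells whose gene overlaps Fyco1 on the other strand, was at 62.9, 43.9 and 68.5 CPM against 165, 143 and 140.1 CPM (-1.35 ± 0.48, adjusted p = 0.0686), and it too passed in the fit of 6 libraries alone (-1.4, adjusted p = 0.0107). DESeq2 called Cxcr6 lower as well (adjusted p = 0.0193). Calls also ended for Ccr9 without the filter on low counts (adjusted p = 0.0581).

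Granzyme and granule genes were called higher in 11 of 15 cases and lower in none (median 2.24). The count was 7 without marker-low 1, naive 1 or naive 3 or in the fit of 6 libraries alone. Gzmb was at 608, 169.6 and 232 CPM against 2.83, 2.34 and 2.4 CPM (7.06 ± 0.50, adjusted p = 3.37e-06). All naive values lay between 2.34 and 2.83 CPM, and library 1 was highest among the marker-low libraries. Gzmk was at 130.4, 26 and 49.9 CPM against 0.721, 0.434 and 0.146 CPM (7.29 ± 0.75, adjusted p = 5.28e-05), and Gzma was called although its libraries overlapped (168, 55.4 and 18.5 CPM against 11.8, 21.6 and 10.4 CPM; 2.47 ± 0.66, adjusted p = 0.0238). Fasl, the death receptor ligand, was at 179, 104 and 162 CPM against 0.133, 0.0868 and 0.104 CPM (10.38 ± 0.43, adjusted p = 3.34e-08). Prf1, which encodes perforin, did not pass the test (467, 373 and 383 CPM against 324, 262 and 321 CPM; 0.43 ± 0.26, adjusted p = 0.27), nor did Nkg7 (1.17 ± 0.39, adjusted p = 0.0544), which passed without marker-low library 2 (1.47, adjusted p = 0.00927). Nkg7 passed too with all 19 libraries, in DESeq2 and without naive 2 (adjusted p of 0.0205 to 0.0492). Serpinb9, the inhibitor that protects killer cells from granzyme B, was higher by 2.39 ± 0.31. Of these genes, Gzma lost its call without marker-low 1, naive 1 or naive 3, adjusted p 0.0839 to 0.133. Calls were lost too for Gzma in the fit of 6 libraries alone and with the macrophage and neutrophil covariate (adjusted p of 0.0745 to 0.376).

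NK-type receptors were higher in 7 of 11 cases (8 without library 2), with lower calls in none. Klrk1, which encodes the activating receptor NKG2D, was at 134, 48.1 and 114 CPM against 1.77, 1.06 and 1.06 CPM (6.24 ± 0.50, adjusted p = 6.67e-06), and Klrb1c at 45.9, 39.6 and 40.4 CPM against 1.99, 1.63 and 1.56 CPM (4.60 ± 0.47, adjusted p = 5.64e-05), with marker-low library 2 the lowest for Klrk1. Klrc1, which encodes the inhibitory receptor NKG2A and shares sequence with its neighbours Klrc2 and Klrc3, was at 97.2, 42.9 and 125 CPM against 0.0759, 0.695 and 0.0417 CPM (8.36 ± 0.96, adjusted p = 0.000108). Klrd1, its partner chain, did not pass the test (0.96 ± 0.49, adjusted p = 0.189) except without marker-low library 2 (1.34, adjusted p = 0.0316). The NK list in the check of cell types holds Klrb1c too, and Ncr1, which marks NK cells, was at 24.3, 16.8 and 2.93 CPM against 0.778, 1.19 and 0.25 CPM. The part of NK cells in these values was not tested.

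Costimulatory receptors were called higher in 6 of 14 cases and lower in none (3 with the macrophage and neutrophil covariate). Tnfrsf9, which encodes 4-1BB and marks recent receptor stimulation, was at 1199.9, 1104 and 1028 CPM against 29.1, 15.5 and 13.2 CPM (5.85 ± 0.39, adjusted p = 2.41e-06). Slamf7 was at 114, 86.8 and 117 CPM against 2.52, 2.67 and 3.8 CPM (5.14 ± 0.26, adjusted p = 2.91e-07), and Tnfrsf4, which encodes OX40, at 37.8, 19.6 and 6.6 CPM against 0.968, 2.37 and 0.209 CPM (4.17 ± 0.92, adjusted p = 0.00945). Cd28 (-0.47 ± 0.73, adjusted p = 0.7) and Icos (0.29 ± 0.47, adjusted p = 0.716) did not pass the test, and each overlapped between groups. Under other settings calls ended for Tnfrsf4 with the macrophage and neutrophil covariate (adjusted p = 0.128).

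Among effector and residency transcription factors 7 of 15 were higher and 1 lower, against 10.6% and 6.21% of all genes. Tbx21, which encodes T-bet, was at 25.4, 15 and 19.6 CPM against 0.0949, 0.109 and 0.104 CPM (7.57 ± 0.83, adjusted p = 8.08e-05), and Eomes at 9.78, 11.6 and 22.5 CPM against 0.531, 0.781 and 0.814 CPM (4.36 ± 1.04, adjusted p = 0.0138). Ikzf3 was at 329, 140.1 and 206 CPM against 22.9, 33.8 and 25.8 CPM (3.03 ± 0.35, adjusted p = 0.000107) and Id2 was higher by 1.44 ± 0.36. Prdm1, which encodes Blimp-1, was low and variable (1.44, 6.04 and 0.264 CPM against 0.038, 3.82 and 4.88 CPM; -0.17 ± 1.11, adjusted p = 0.944). Rbpj, the nuclear partner of Notch, was lower (-2.31 ± 0.56, adjusted p = 0.0144), except that the call ended without marker-low 1 or naive 3, adjusted p 0.0606 to 0.0631. Zfp683, the residency factor Hobit, did not pass the test (-0.42 ± 0.56, adjusted p = 0.649). Left-out libraries also ended the calls of Eomes (without naive 1 or naive 3, adjusted p 0.0545 to 0.0574) and Id2 (without marker-low 1 or naive 3, adjusted p 0.0545 to 0.0779). Among the remaining alternatives calls ended for Eomes with the macrophage and neutrophil covariate (adjusted p = 0.174) and for Id2 in the fit of 6 libraries alone and with the macrophage and neutrophil covariate (adjusted p of 0.0641 to 0.249).

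Genes of division were among the lists with the most members called. In the replication list 17 of 20 were higher, in the mitosis list 15 of 20, and none was lower, against 10.6% and 6.21% of all genes. These counts were 15 to 17 and 13 to 18 over all alternatives run. Rrm2, which makes deoxynucleotides, was at 274, 244 and 269.7 CPM against 9.81, 4.38 and 2.67 CPM (5.54 ± 0.44, adjusted p = 6.20e-06), and Uhrf1, which maintains DNA methylation at replication forks, at 283, 344 and 335 CPM against 25, 13.7 and 16.2 CPM (4.13 ± 0.32, adjusted p = 5.98e-06). Ccnb2, a mitotic cyclin, was at 267, 108 and 199 CPM against 1.39, 0.521 and 1.11 CPM (7.57 ± 0.52, adjusted p = 2.92e-06), and the mitotic kinase gene Plk1 at 171, 162 and 118 CPM against 2.73, 3.67 and 2.5 CPM (5.66 ± 0.36, adjusted p = 1.70e-06). The groups lay far apart for all 4, and the marker-low libraries agreed within 3-fold. Cdk1 (5.71 ± 0.52), the kinase of mitotic entry, and Birc5 (6.39 ± 0.66), which encodes survivin, were called too. Mcm4 (-0.35 ± 0.40, adjusted p = 0.587), Cdt1 (0.39 ± 0.50, adjusted p = 0.629) and E2f1 (1.25 ± 0.50, adjusted p = 0.103) were the replication genes that did not pass. Mki67, the usual proliferation marker, was low in these counts and did not pass (2.59, 0.194 and 0.935 CPM against 0.19, 0 and 0 CPM; 4.21 ± 1.92, adjusted p = 0.143). Of G1 cyclins and inhibitors 3 of 14 were higher, namely Ccne1 (2.25 ± 0.57), Cdk4 (0.72 ± 0.23) and Cdkn1a (5.21 ± 0.99), the last highest in library 2 at 7.6, 22.2 and 3.84 CPM. This count was 1 without marker-low 1, naive 1 or naive 2 or with the macrophage and neutrophil covariate, and the Cdk4 call ended without any 1 of the 6 libraries. Cdkn1b, which encodes the quiescence inhibitor p27, was at 7.05, 8.6 and 11.2 CPM against 22.4, 22.5 and 20.4 CPM (-1.28 ± 0.42, adjusted p = 0.0539), but was called lower in DESeq2 (adjusted p = 0.0109) and in 6 of the edgeR alternatives (lowest adjusted p = 0.0171). Further losses of a call came for Cdk4 with RLE factors, with the hepatocyte covariate, with the macrophage and neutrophil covariate, without the filter on low counts, with the replicate block, with a stricter filter and with upper-quartile factors (adjusted p of 0.0502 to 0.118) and for Cdkn1a with the macrophage and neutrophil covariate (adjusted p = 0.141).

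Cell cycle genes are known to carry E2F sites, used at the start of replication, or CCAAT boxes with a cell cycle homology region (CHR), used in mitosis, close upstream of their starts. The 250 bases upstream of RefSeq transcript starts (GRCm38.p6) were searched on both strands, and 9869 of the genes tested had such a window. The E2F letters TTTCCCGC, TTTGGCGC, TTTCGCGC and TTTGCCGC were found upstream of 5 of 15 called replication genes and 3.8% of all genes. CCAAT was found upstream of 11 of 12 called mitosis genes and 40.2% of all genes, and TTTGAA (CHR) upstream of 5 of 12 and 13% of all. CCAAT was not particular to mitosis genes or to called ones. It lay upstream of 11 of 15 called replication genes and of 16 of all 17 mitosis genes with a window. The Uhrf1 window below holds CCAAT 2 times, not put in capitals. The CCAAT and CHR motifs were added after the values were seen. A match is a description of the letters and shows no binding. As examples, the sequences upstream of the called gene with the smallest adjusted p that holds the motifs in each list are shown, with matches in capitals (CCAAT on either strand and TTTGAA for Ccnb2, minus strand, chr9:70421555-70421804; an E2F match for Uhrf1, plus strand, chr17:56304063-56304312).
Ccnb2: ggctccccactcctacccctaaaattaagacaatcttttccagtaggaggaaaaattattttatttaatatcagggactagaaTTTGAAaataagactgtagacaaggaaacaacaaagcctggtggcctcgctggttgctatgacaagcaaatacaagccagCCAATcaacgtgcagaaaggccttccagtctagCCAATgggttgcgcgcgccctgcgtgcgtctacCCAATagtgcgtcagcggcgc
Uhrf1: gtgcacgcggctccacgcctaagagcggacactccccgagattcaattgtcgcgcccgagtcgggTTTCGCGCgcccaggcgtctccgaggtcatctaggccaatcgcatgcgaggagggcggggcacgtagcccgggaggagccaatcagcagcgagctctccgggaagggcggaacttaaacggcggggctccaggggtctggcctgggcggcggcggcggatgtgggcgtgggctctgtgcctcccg

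Metabolic lists rose in part. Of 16 glycolysis genes 9 were higher and none lower, the first count being 5 with the macrophage and neutrophil covariate. Hk2, the inducible hexokinase, was at 15, 49.3 and 24.4 CPM against 1.1, 1.3 and 0.542 CPM (4.91 ± 0.52, adjusted p = 7.25e-05), with library 2 highest. Tpi1 was at 849, 674 and 773 CPM against 127, 135 and 111 CPM (2.62 ± 0.29, adjusted p = 8.42e-05) and Gapdh at 2074, 1182 and 1694 CPM against 633, 641 and 485 CPM (1.49 ± 0.29, adjusted p = 0.00434). Ldha, which makes lactate, was higher by 0.98 ± 0.30, a call that ended without any 1 of the 6 libraries. In serine and one-carbon metabolism 6 of 15 were higher (4 without library 2), with Psat1, an enzyme of serine synthesis, at 335, 342 and 305 CPM against 68.6, 46.2 and 63.5 CPM (2.46 ± 0.26, adjusted p = 7.47e-05) and Asns, which makes asparagine, at 21.5, 14.8 and 16.7 CPM against 0.949, 0.195 and 0.876 CPM (4.70 ± 0.59, adjusted p = 0.000209). Shmt1 was higher by 3.18 ± 0.44 and Mthfd2 by 1.33 ± 0.22. Among amino acid transporters 5 of 10 were higher, among them Slc1a5 (1.50 ± 0.30) and Slc7a1 (1.46 ± 0.27), a count that was 1 with the macrophage and neutrophil covariate. Other settings ended calls for Ldha with the hepatocyte covariate, with the macrophage and neutrophil covariate, without the filter on low counts, with the replicate block and with upper-quartile factors (adjusted p of 0.0535 to 0.166) and for Slc7a1 with the macrophage and neutrophil covariate (adjusted p = 0.0866).

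Respiratory chain genes were near the background, with 2 of 18 higher (Uqcrc1, 0.54 ± 0.15, adjusted p = 0.0238; Atp5b, 0.56 ± 0.17, adjusted p = 0.0387), and Sdha lower (-0.68 ± 0.15, adjusted p = 0.00769). The count called higher was 0 without marker-low 1, marker-low 2, marker-low 3, naive 2 or naive 3, without the filter on low counts or with upper-quartile factors, 1 without naive 1, in the fit of 6 libraries alone, with the hepatocyte covariate or with RLE factors and 4 in DESeq2. Subunits of this chain are often encoded by short transcripts, and genes with under 1000 exon bases varied between libraries of one group, with median deviations from the group mean of 0.52, -0.75 and 0.22 (log2) in marker-low and -0.12, 0.65 and -0.54 in naive libraries. Sterol and fatty acid synthesis went the other way, with none of 17 higher and 4 lower, a count that was 0 without marker-low 1, marker-low 3 or naive 3, 2 without naive 1 or in the fit of 6 libraries alone and 7 without marker-low 2. Hmgcs1, an early enzyme of sterol synthesis, was at 4.16, 14.9 and 1.69 CPM against 25.6, 33.2 and 84.2 CPM (-2.79 ± 0.74, adjusted p = 0.0221), and Srebf2, the factor that drives the pathway, at 289, 437 and 265 CPM against 533, 518 and 791 CPM (-0.90 ± 0.22, adjusted p = 0.017). Both calls ended without marker-low 1, marker-low 3 or naive 3. Calls also ended for Hmgcs1 and Srebf2 in the fit of 6 libraries alone (adjusted p of 0.0609 to 0.0689), for Atp5b with RLE factors, with the hepatocyte covariate, without the filter on low counts and with upper-quartile factors (adjusted p of 0.0509 to 0.09) and for Uqcrc1 in the fit of 6 libraries alone, with the macrophage and neutrophil covariate, without the filter on low counts and with upper-quartile factors (adjusted p of 0.0529 to 0.0853).

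Transcription factors of naive and memory cells were lower in 4 of 12 cases and higher in none (median -1.51). Foxo1 was at 6.16, 6.64 and 19.3 CPM against 32, 37.5 and 51.9 CPM (-1.92 ± 0.53, adjusted p = 0.0262) and Foxp1 at 16.2, 24.2 and 42.9 CPM against 81.8, 99.1 and 145 CPM (-1.97 ± 0.50, adjusted p = 0.018). Both keep naive cells quiescent. Satb1, a chromatin organiser, was lower (-2.37 ± 0.74, adjusted p = 0.0429), and so was Ets1 (-1.03 ± 0.24, adjusted p = 0.0136). Leaving out 1 library ended the calls of Foxo1 (without marker-low 1, marker-low 2, naive 2 or naive 3, adjusted p 0.0527 to 0.0961), Foxp1 (without marker-low 1 or naive 3, adjusted p 0.0714 to 0.072) and Ets1 (without marker-low 1 or naive 3, adjusted p 0.059 to 0.064), and that of Satb1 ended without any 1 of the 6 libraries. Tcf7, which encodes TCF1 and marks cells that can renew themselves, was at 523, 577 and 676 CPM against 1283, 1099 and 1447 CPM. Its 3 marker-low libraries all lay below the naive ones but the difference did not pass the test (-1.11 ± 0.81, adjusted p = 0.37). Its spread there was estimated over all 15 ex vivo libraries, and in marker-high libraries it ran from 1.57 to 94.3 CPM. Lef1, a relative of Tcf7, was at 231, 271 and 359 CPM against 1397, 1181 and 1413 CPM (-2.21 ± 0.76, adjusted p = 0.0635). When the 6 marker-low and naive libraries were fitted alone, both were called lower, Tcf7 with -1.15 (adjusted p = 0.0113) and Lef1 with -2.26 (adjusted p = 0.00259). Lef1 was also called lower with all 19 libraries, in DESeq2 and with a stricter filter (adjusted p of 0.00947 to 0.0467). Bach2 did not pass either (-0.52 ± 0.60, adjusted p = 0.588). The count of lower calls varied with the libraries and settings used, being 0 without marker-low 1 or naive 3 or with the macrophage and neutrophil covariate, 2 without marker-low 2 or naive 2 and 8 in the fit of 6 libraries alone. A fit without 1 library has less data, so a lost call need not mean a changed value. Without marker-low 1, Foxp1 was at -1.7 and Ets1 at -0.9. Calls were lost too for Ets1, Foxo1 and Foxp1 with the macrophage and neutrophil covariate (adjusted p of 0.108 to 0.223) and for Satb1 with the hepatocyte covariate and with the macrophage and neutrophil covariate (adjusted p of 0.0766 to 0.169).

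Homing and quiescence genes of the surface were lower in 6 of 16 cases and higher in 1 (median -1.02), against 6.21% and 10.6% of all genes. The lower count was 3 without marker-low 1, marker-low 3, naive 1 or naive 3 or without the filter on low counts. Il7r, the interleukin 7 receptor that sustains naive cells, was at 0.279, 3.12 and 3.35 CPM against 57.2, 101 and 148 CPM (-5.50 ± 1.01, adjusted p = 0.00329). Naive levels were at least 17-fold above every marker-low library. Ccr7, which brings cells into lymph nodes, was at 630.0, 866 and 919 CPM against 4563, 4031 and 4474 CPM (-2.44 ± 0.78, adjusted p = 0.049), and Actn1 at 10.3, 16.1 and 16.7 CPM against 63.2, 70.0 and 99.8 CPM (-2.44 ± 0.41, adjusted p = 0.00182). Ly6c2 was higher (2.99 ± 0.69, adjusted p = 0.0122) and its near-identical neighbour Ly6c1 lower (-3.07 ± 0.61, adjusted p = 0.00491), and reads of the pair may be split between them. Calls of the genes given here ended without 1 library for Ccr7 (without marker-low 1, marker-low 2, marker-low 3 or any 1 naive library, adjusted p 0.0851 to 0.142) and Ly6c2 (without naive 1 or naive 3, adjusted p 0.0536 to 0.0594). Under other settings calls ended for Ly6c1 and Ly6c2 with the macrophage and neutrophil covariate (adjusted p of 0.0521 to 0.217) and for Ccr7 without the filter on low counts and with the replicate block (adjusted p of 0.0713 to 0.0954).

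Of 11 integrins 2 were higher and 1 lower, near the 10.6% and 6.21% of all genes. The first count was 1 without marker-low 1, marker-low 2, naive 1 or naive 3, in the fit of 6 libraries alone, with the macrophage and neutrophil covariate, without the filter on low counts, with RLE factors or with upper-quartile factors. Itgae, which encodes CD103 and binds E-cadherin, was at 2.05, 20.5 and 0.467 CPM against 488, 392 and 649 CPM (-6.05 ± 1.21, adjusted p = 0.00534). Library 2 had the most Itgae among the marker-low libraries, and it still lay far below every naive library. Itgax, an integrin of myeloid and of activated T cells, was at 99.6, 147 and 73.2 CPM against 4.02, 1.19 and 1.65 CPM (5.54 ± 0.92, adjusted p = 0.00174), and Itgb2 was called higher (0.70 ± 0.21, adjusted p = 0.0352) with the call ending without marker-low 1, marker-low 2 or any 1 naive library, adjusted p 0.0537 to 0.233. Among the remaining alternatives calls ended for Itgb2 in the fit of 6 libraries alone, with RLE factors, with the macrophage and neutrophil covariate, without the filter on low counts and with upper-quartile factors (adjusted p of 0.0537 to 0.256).

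Genes of the receptor complex were lower in 4 of 11 cases and higher in none. The coreceptor genes Cd8a (-1.27 ± 0.17, adjusted p = 0.000371) and Cd8b1 (2224, 1131 and 1852 CPM against 6207, 7361 and 5259 CPM; -1.85 ± 0.21, adjusted p = 0.000106) were lower without overlap. Cd247, the signalling chain CD3 zeta, was lower (-0.90 ± 0.17), as was Ptprc, which encodes CD45 (-2.83 ± 0.59). Trac (0.17 ± 0.26, adjusted p = 0.694), Cd3d (-0.51 ± 0.42, adjusted p = 0.429) and Cd3e (-0.45 ± 0.18, adjusted p = 0.108) did not pass the test, Cd3e with the exception of the fit without marker-low 1 (-0.64, adjusted p = 0.043). Library 2 was lowest of the marker-low libraries for Cd8a, Cd8b1 and Cd3e, and the count of lower calls was 4 without it and 3 to 5 over all alternatives run. In bulk libraries fewer cells and less RNA per cell cannot be told apart. Further losses of a call came for Cd247 with the macrophage and neutrophil covariate (adjusted p = 0.096).

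Receptor-proximal signalling genes were lower in 5 of 14 cases and higher in 2, against 6.21% and 10.6% of all genes. The number called higher was thus near the share over all genes. The higher count was 1 without marker-low 2, naive 2 or naive 3, in the fit of 6 libraries alone, with the hepatocyte covariate or with the macrophage and neutrophil covariate. Themis, needed in thymic selection, was at 3.85, 3.61 and 4.39 CPM against 73.8, 74.3 and 105 CPM (-4.41 ± 0.68, adjusted p = 0.000978), Grap2 at 51.9, 37.6 and 58.7 CPM against 182, 244 and 183 CPM (-2.04 ± 0.25, adjusted p = 0.000154) and Rasgrp1, which activates Ras, at 3.98, 5.59 and 8.21 CPM against 30.8, 27.3 and 50.6 CPM (-2.61 ± 0.42, adjusted p = 0.00142). The kinase gene Lck was lower (-0.62 ± 0.18) and Fyn, of the same kinase family, higher (1.28 ± 0.25). The Lck call ended without any 1 of the 6 libraries. Zap70 (0.38 ± 0.18, adjusted p = 0.162) and Lcp2 (0.28 ± 0.16, adjusted p = 0.23) did not pass the test. Other settings ended calls for Lck with the hepatocyte covariate and with the macrophage and neutrophil covariate (adjusted p of 0.0829 to 0.547).

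The same V segments led in both groups. Trbv29 made up 97.78 to 98.49% of Trbv counts in all 6 libraries, and Trav9-2 made up 71.47 to 77.61% of Trav counts in marker-low and 78.6 to 88.09% in naive libraries. Summed Trbv counts were lowest in marker-low library 2, at 4324, 1339 and 3388 CPM against 1912, 6332 and 3116 CPM. Of 10 V segments with at least 10 CPM in 1 of these libraries or more, 3 passed the test. Trav14n-3 was higher in marker-low cells, at 20.4, 10.3 and 38.34 CPM against 0.5007 to 1.758 CPM (adjusted p = 0.0195). Trav16n was higher too, at 7.655, 3.376 and 10.1 CPM against 1.101, 2.474 and 0.8136 CPM (2.27, adjusted p = 0.0256). Trav21-dv12 was lower, at 2.129, 0.8816 and 2.012 CPM against 5.144, 10.16 and 5.758 CPM (-2.07, adjusted p = 0.0216). Trdc, the constant region of the delta chain, whose unrearranged gene lies within the alpha chain locus, was at 11.8, 11.8 and 9.67 CPM against 254, 292 and 276 CPM (-4.63 ± 0.67, adjusted p = 0.000592). The other 3 gamma-delta T markers did not pass the test, but 1 was called higher without naive 2. In DESeq2 no gamma-delta T marker was called lower, Trdc included.

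Cytokine receptors were higher in 6 of 18 cases and lower in 2, against 10.6% and 6.21% of all genes. The lower count was 1 without marker-low 1 or any 1 naive library, with the hepatocyte covariate, with the macrophage and neutrophil covariate or without the filter on low counts. Il2rb, shared by the interleukin 2 and 15 receptors, was at 3326, 2323 and 2767 CPM against 545, 553 and 548 CPM (2.35 ± 0.35, adjusted p = 0.000804). Il10ra was at 477, 841 and 460.4 CPM against 61.5, 36.6 and 91.6 CPM (3.23 ± 0.37, adjusted p = 0.000103) and Ifngr1 at 562, 852 and 752 CPM against 153, 175 and 196 CPM (2.05 ± 0.26, adjusted p = 0.000268). Il18rap (5.97 ± 1.25) and Il12rb1 (1.54 ± 0.28) were higher, while Il27ra was lower (-1.14 ± 0.17, adjusted p = 0.000834). Il2ra, which encodes CD25, did not overlap between groups and did not pass (2.78 ± 0.91, adjusted p = 0.0535), with calls under 5 alternatives, DESeq2 among them (adjusted p = 0.00538). Among 11 STAT and SOCS genes calls were near the share over all genes. Cish, an inhibitor induced by STAT5, was higher (90.6, 79.9 and 68.7 CPM against 14.8, 30.4 and 20.2 CPM; 1.87 ± 0.31, adjusted p = 0.00148), and Stat4, which signals for interleukin 12, was lower (-1.37 ± 0.39, adjusted p = 0.0294). The call of Stat4 ended without marker-low 1, marker-low 2, marker-low 3, naive 1 or naive 3, adjusted p 0.051 to 0.113. Calls also ended for Il18rap with the macrophage and neutrophil covariate (adjusted p = 0.069).

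Interferon-stimulated genes were lower in 5 of 18 cases and higher in 1 (median -0.68), against 6.21% and 10.6% of all genes. This was in cells whose own Ifng was higher. The lower genes were Ifit1, Ifit2, Ifit3, Gbp2 and Gbp4. Gbp4 was at 13.2, 26.7 and 15.3 CPM against 57.4, 68.1 and 74.2 CPM (-1.85 ± 0.43, adjusted p = 0.0118), Gbp2 at 49.3, 125 and 61.6 CPM against 260.2, 165 and 198 CPM (-1.40 ± 0.36, adjusted p = 0.0205) and Ifit2 at 1.67, 3.63 and 1.3 CPM against 10.9, 14.5 and 28.3 CPM (-3.02 ± 0.72, adjusted p = 0.0139). Single libraries ended the calls of Gbp4 (without marker-low 1, adjusted p = 0.0519), Gbp2 (without marker-low 1, marker-low 3, naive 1 or naive 3, adjusted p 0.052 to 0.0794) and Ifit2 (without marker-low 1, marker-low 3 or naive 3, adjusted p 0.051 to 0.0574). The call of Ifit1 (adjusted p = 0.0456) ended without marker-low 2, marker-low 3 or any 1 naive library, adjusted p 0.0628 to 0.12. The macrophage and neutrophil covariate, the replicate block and the fit without the filter on low counts ended it too (adjusted p of 0.0957 to 0.198). Mx1 was higher (2.54 ± 0.70, adjusted p = 0.0268), a call that ended without marker-low 1, marker-low 2, naive 1 or naive 2, adjusted p 0.0525 to 0.0915. Isg15 (-0.91 ± 0.41, adjusted p = 0.145), Irf7 (-0.62 ± 0.44, adjusted p = 0.356) and Stat2 (-0.22 ± 0.48, adjusted p = 0.798) did not pass the test. The count of lower calls varied with the library left out, being 1 without marker-low 3, 2 without marker-low 1, naive 1 or naive 3 or with the macrophage and neutrophil covariate and 3 without naive 2. The letters of the interferon response element, GAAANNGAAA, lay within 250 bases upstream of 8 of 14 genes of the list and 3.3% of all genes, and of 3 of the 4 called genes with a window. The upstream sequence of Gbp2 (plus strand, chr3:142620413-142620662), the called gene with the smallest adjusted p that holds it, has the match on the opposite strand, shown in capitals. Calls were lost too for Ifit2 with the macrophage and neutrophil covariate (adjusted p = 0.093) and for Mx1 with the hepatocyte covariate, with the macrophage and neutrophil covariate and with the replicate block (adjusted p of 0.0504 to 0.0737).
Gbp2: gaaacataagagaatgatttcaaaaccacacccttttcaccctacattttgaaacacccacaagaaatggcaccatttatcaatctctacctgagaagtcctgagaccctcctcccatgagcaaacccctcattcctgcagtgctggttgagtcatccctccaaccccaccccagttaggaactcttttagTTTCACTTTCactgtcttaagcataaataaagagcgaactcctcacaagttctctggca

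The AP-1 site, TGANTCA, bound by the products of Fos and Jun genes, was found upstream of 3 of 9 called cytokine genes, 2 of 5 called chemokine genes and 5.6% of all genes. It was not particular to these lists, with 2 of 4 called interferon-stimulated genes. Called receptor-induced transcription factors (0 of 9), replication (0 of 15) and mitosis genes (0 of 12) had none. The called cytokine genes with the site were Il16, Lif and Tnfsf14, of which Il16 was lower and the others were higher. Tnfsf14 (minus strand, chr17:57194182-57194431), with the smallest adjusted p of them, carries it as TGAGTCA.
Tnfsf14: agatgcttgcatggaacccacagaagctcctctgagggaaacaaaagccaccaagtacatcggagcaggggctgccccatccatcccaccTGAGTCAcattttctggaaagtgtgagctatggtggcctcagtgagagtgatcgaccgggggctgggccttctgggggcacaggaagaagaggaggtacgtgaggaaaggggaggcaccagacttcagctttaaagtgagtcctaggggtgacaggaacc

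Of 13 BCL2 family genes 5 were higher and none lower. The survival gene Bcl2l1 was at 213, 183 and 188 CPM against 57.1, 66.6 and 74.2 CPM (1.56 ± 0.20, adjusted p = 0.000238), and the death-promoting gene Bcl2l11, which encodes BIM, at 269, 259.6 and 278 CPM against 28.6, 26.3 and 55.4 CPM (2.87 ± 0.47, adjusted p = 0.00145). Bcl2a1b (4.17 ± 0.52) and Bcl2a1d (5.17 ± 0.50), near-identical copies whose reads may be split, were higher, and Bcl2 did not pass (0.59 ± 0.50, adjusted p = 0.442). Of 10 genes of DNA methylation and polycomb 1 was higher and 1 lower, near the share over all genes. Dnmt3b was higher (1.82 ± 0.39, adjusted p = 0.00781) and Tet3 lower (-0.73 ± 0.22, adjusted p = 0.0343), a call that ended without marker-low 1, marker-low 3 or any 1 naive library. Heat shock and dissociation genes, which can respond to the handling of tissue, were higher in 6 of 14 cases and lower in none. The count was 2 with the macrophage and neutrophil covariate and 3 without marker-low 2 or any 1 naive library. Atf3 was at 20.5, 62.9 and 11.2 CPM against 0.0759, 0.0217 and 0.0209 CPM (9.51 ± 1.26, adjusted p = 0.000302) and Ier3 at 48.4, 67.9 and 33.7 CPM against 3.42, 7.23 and 4.55 CPM (3.30 ± 0.55, adjusted p = 0.00174), both highest in library 2, beside the immediate early genes above that belong to the same kind of response. The part of tissue handling in those genes was not tested. Under other settings calls ended for Ier3 with the macrophage and neutrophil covariate (adjusted p = 0.0806) and for Tet3 in the fit of 6 libraries alone, with the hepatocyte covariate, with the macrophage and neutrophil covariate and without the filter on low counts (adjusted p of 0.0553 to 0.387).

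Outside the lists, the largest rises among genes that reached 10 CPM included several genes at 0 in naive cells. Slc9b2, a sodium proton exchanger, was at 37.4, 34.2 and 34.1 CPM, at least 1717-fold higher. Mtfr2, a regulator of mitochondrial fission, was at 12.4, 22.5 and 17.6 CPM, at least 869-fold higher (adjusted p = 3.37e-06), and Gpr15, a homing receptor, at 5.37, 12.4 and 19.6 CPM, at least 635-fold higher (adjusted p = 0.000115). The marker-low libraries agreed within 4-fold for these 3 genes. For 3 others library 2 was far above the rest or library 3 far below. Ldlrad3 was at 0.152, 50.0 and 4.13 CPM (at least 916-fold higher, adjusted p = 0.0363, with the call ending without marker-low 2 or any 1 naive library, adjusted p 0.0857 to 0.103). Mmp12, a macrophage elastase, was at 19.6, 29.7 and 0.853 CPM (at least 795-fold), and Alox15, a lipoxygenase of myeloid cells, at 1.29, 66.1 and 5.51 CPM (ratio 3686, 95% counting interval 661 to 145620.0). The call of Alox15 ended without any 1 naive library, adjusted p 0.0601 to 0.0681. Among the remaining alternatives calls ended for Ldlrad3 with the hepatocyte covariate, with the macrophage and neutrophil covariate and without the filter on low counts (adjusted p of 0.08 to 0.299). The macrophage and neutrophil covariate also ended the calls of Mmp12 (adjusted p = 0.108) and Alox15 (adjusted p = 0.211). That of Alox15 ended with the hepatocyte covariate too (adjusted p = 0.0534).

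Among the largest falls was Slc16a5, a monocarboxylate transporter, at 11.8, 16.8 and 16.5 CPM against 612, 537 and 734 CPM (-5.38 ± 1.05, adjusted p = 0.00464). Calcrl, the receptor for calcitonin gene-related peptide, was at 0, 0 and 0.325 CPM against 15.2, 17 and 30.2 CPM (-7.51 ± 1.81, adjusted p = 0.0141), and Cyp2s1, a cytochrome P450, at 1.88, 3.59 and 0.0203 CPM against 55.4, 64.8 and 76.5 CPM (-5.16 ± 1.26, adjusted p = 0.0155). Every naive library lay above every marker-low library for these, which the rule that named them required. Zbtb38, a factor that binds methylated DNA, was at 0.101, 0.409 and 0.447 CPM against 5.86, 11.3 and 14.9 CPM (-5.04 ± 0.71, adjusted p = 0.00048), and the zinc finger gene Zfp874b at 0.203, 0.0215 and 0.549 CPM against 12.5, 13.2 and 15.8 CPM (-5.72 ± 1.11, adjusted p = 0.00449). Lman1l had no count in marker-low cells and 6.21, 29.5 and 3.09 CPM in naive cells, at least 564-fold lower. Calls ended without 1 library for Cyp2s1 (without marker-low 1, adjusted p = 0.0561) and Lman1l (without naive 2, adjusted p = 0.0527). Further losses of a call came for Calcrl, Cyp2s1, Lman1l and Zfp874b with the macrophage and neutrophil covariate (adjusted p of 0.0608 to 0.0836). The Lman1l call ended in DESeq2 too (adjusted p = 0.0501).

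Marker-low and marker-high cells were then compared directly, since both would otherwise be read against the same naive libraries. The headings KO and WT part these groups in the same way as the labels. If the headings mark a genotype, its effect cannot be told apart from that of the marker level in this comparison. Far fewer genes differed, 78 of 16404 higher in marker-high cells (0.475%) and 118 lower (0.719%). These counts were 13 and 25 without marker-low 3, 37 and 55 without marker-low 1, 47 and 34 without marker-high 2, and there were 71 lower without marker-high 1 or 3. Of the 81 genes named by rule here, 13 differed. Of 18 receptor-induced transcription factors 2 were lower in marker-high than in marker-low cells (Nr4a1 and Myc), of 16 cytokines 3 (Tnf, Il2 and Tnfsf14), and none of either list was higher. Nr4a1 was at 271, 173 and 112 CPM in marker-high cells (-2.43 ± 0.46, adjusted p = 0.023, marker-high minus marker-low), between the naive and the marker-low range. Tnf was at 46.7, 26 and 9.63 CPM there (-2.74 ± 0.48, adjusted p = 0.0172), Myc at 277, 335 and 214 CPM (-1.20 ± 0.25, adjusted p = 0.0366) and Tnfsf14 at 30.7, 24.5 and 11.4 CPM (-2.75 ± 0.42, adjusted p = 0.0103). Ifng (-2.19 ± 0.55, adjusted p = 0.0843) and Egr2 (-3.22 ± 0.75, adjusted p = 0.0617) did not pass, nor did Bhlhe40, whose value lay the other way (0.26 ± 0.34, adjusted p = 0.872). Other genes continued in the direction they took from naive to marker-low cells. Gzmb reached 2324, 3344 and 3808 CPM (3.23 ± 0.42, adjusted p = 0.00381), and Cish 227, 297 and 456 CPM (2.03 ± 0.31, adjusted p = 0.0103). Satb1 fell further, to 0.226, 0.885 and 0.18 CPM (-4.61 ± 0.83, adjusted p = 0.0202), while Tcf7, at 94.3, 71 and 1.57 CPM, did not pass (-3.41 ± 0.88, adjusted p = 0.0942). Cell cycle genes were high in both groups, with Plk1 higher in marker-high cells by 1.39 ± 0.30 (adjusted p = 0.045) and Rrm2 not passing the test (0.82 ± 0.36, adjusted p = 0.403). Of the 27 genes given here that differed, 8 kept the call with any 1 library left out (Cxcr6, Dgka, Dtx1, Gzma, Gzmb, Nfkbid, Tnfsf14 and Tox). The replicate block ended the calls of Myc (adjusted p = 0.0548) and Plk1 (0.0726) here, and that of Plk1 also ended with either covariate (0.0621 and 0.0618) and with upper-quartile factors (0.0589). Cxcr6 parted in the other way, with marker-low cells at 62.9, 43.9 and 68.5 CPM and marker-high cells at 414, 654 and 2246 CPM (4.24 ± 0.53, adjusted p = 0.00341).

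**Figure D4:**
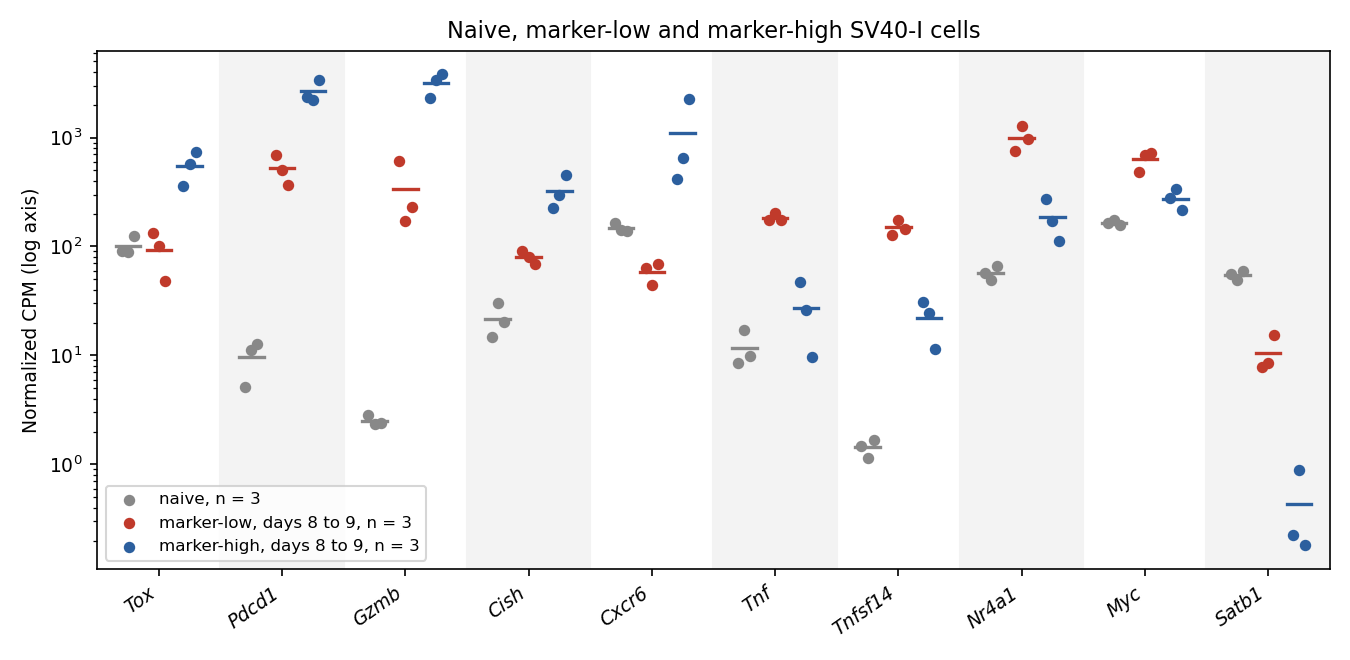
Normalised CPM (log axis) of 10 genes in each naive (grey), marker-low (red) and marker-high (blue) library, with bars at group means. Tnf, Tnfsf14, Nr4a1 and Myc are highest in the marker-low libraries, Pdcd1, Gzmb and Cish climb from naive through marker-low to marker-high, and Tox and Cxcr6 are highest in the marker-high libraries.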

How the data were processed

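RNA-seq of 6 libraries (3 marker-low, 3 naive) was analysed, beside 3 marker-high libraries and the other ex vivo groups that share the fit. Per the labels' protocols, cells were sorted into Trizol and total RNA was amplified with a SMART-seq kit before paired-end sequencing. The deposited tables hold raw counts of fragments per gene. The counter was featureCounts 1.6.2 with GENCODE M17 and no strand option, per the file headers, so overlapping and antisense genes cannot be told apart. FastQC, STAR and DESeq2 are named in the submitters' processing notes with GRCm38 and mm10, without versions for the aligner. No molecular identifiers were used, so intervals and floors cover counting error only.

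Counts of 53656 genes per table were fitted in R 4.3.3 with edgeR 4.0.16 (TMM factors, filterByExpr, robust quasi-likelihood F tests) over all 15 ex vivo libraries with 5 group coefficients, leaving 16404 genes. SEs were worked back from the F statistic and are left out where a group has no counts. On simulated counts of 15800 genes for the marker-low against naive comparison, 13% of genes changed 1 log2 unit and 65% of genes changed 2 were recovered, with 2.5% false among the calls. Replicate pairs within a group differed beyond sampling noise. Replicates with the same number showed no shared deviation (correlations of -0.011, -0.173 and 0.036). Alternatives were DESeq2 1.42.0, other scaling and filters, other sets of libraries and genes, covariates, a replicate block and each library left out.

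The genes named by rule were Tox, the 4 sort marker genes, the 2 members of each T cell list with the smallest p (all of the TOX family), and, from called genes without overlap that reached 10 CPM on average in a group, the 10 with the largest rise and the 10 with the largest fall, leaving out receptor segments, clone-named, Gm and Rik loci and genes of other cells. The groups, lists and rule were chosen with earlier results of these data known, and the further list members named were chosen after their values were seen. A few genes, some of them named by the rule, are not reported here. Upstream sequences are from RefSeq (GRCm38.p6).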

Additional observations from a re-analysis of the deposited data

Results flagged for a closer look

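For 13 of the genes named by rule, the change from naive cells differed between marker-low and marker-high cells by the direct edgeR test (values are marker-high minus marker-low, log2). Higher in marker-high cells were Zbtb38 (3.45), Gzmb (3.23), Entpd1 (2.84), Tox (2.56), Pdcd1 (2.34), Tigit (2.19), Cish (2.03), Plk1 (1.39) and Cd8a (1.01), with adjusted p from 0.00381 (Gzmb) to 0.045 (Plk1). Lower in marker-high cells were Slc16a5 (-8.38), Gpr15 (-4.39), Tnfsf14 (-2.75) and Tet3 (-1.3), with adjusted p from 0.0103 to 0.0268. Pdcd1 and Entpd1 encode proteins by which the groups are labelled. A genotype, if the headings KO and WT mark one, cannot be told apart from the marker level in any of these values. Cd8a and Zbtb38 were lower in marker-low than in naive cells and higher again in marker-high cells (2605, 2526 and 3249 CPM and 2.71, 2.66 and 5.28 CPM). Slc16a5 was near 0 there (0.0503, 0.0506 and 0.0258 CPM), so its fitted value depends on the prior count.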

How the results depend on the processing

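Against naive cells, calls higher and lower ran from 1247 to 1967 and 853 to 1399 over the alternatives that kept every ex vivo library in these groups, except DESeq2 (2539 and 1760) and the macrophage and neutrophil covariate (794 and 489). Leaving out 1 library gave 988 to 1522 higher and 414 to 913 lower, with the fewest without naive 3 (988 and 414), naive 1 (1100 and 598), marker-low 1 (464 lower) and marker-low 3 (652 lower). For marker-high against marker-low cells, all 19 libraries gave 133 higher and 178 lower and DESeq2 332 and 405, and leaving out 1 library gave 13 to 73 and 25 to 86. The fewest were without marker-low 3 (13 and 25), marker-high 2 (47 and 34) and marker-low 1 (37 and 55), and without marker-high 1 or 3 there were 71 lower. The replicate block gave 1600 and 1142 calls against naive and 59 and 85 for marker-high against marker-low, with no sign in the counts that the numbers pair the samples. The cause of these changes was not tested.

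Of 79 genes named by the rule and called, 55 kept call and direction in every alternative run that gave an adjusted p, and no called gene reversed. Tox4, not called, ran from -0.08 (without marker-low 2) to 0.27 with 1 library left out. Over the 155 called genes named by the rule or reported here, 100 kept their call in every alternative and 117 with any 1 library left out. Against marker-high cells, 8 of 27 did. Of the 155, calls ended for 32 without naive 3, 29 without marker-low 1, 23 without naive 1, 20 without naive 2, 17 without marker-low 2 and 16 without marker-low 3 (adjusted p of 0.0502 to 0.233). They ended for 43 with the macrophage and neutrophil covariate (0.052 to 0.547), 12 with the hepatocyte covariate, 12 without the filter on low counts, 10 in the fit of 6 libraries alone, 5 with upper-quartile factors, 3 with RLE factors, 1 with a stricter filter and 1 in DESeq2 (Lman1l, 0.0501), which gave no adjusted p for Ccr9 and Tbx21. Trdc is not among these counted losses, although DESeq2 called no gamma-delta T marker lower. The replicate block ended 7 (Ccr7 0.0713, Cdk4 0.0559, Clec4f 0.0637, Ifit1 0.109, Ldha 0.0535, Mx1 0.0504 and Vsir 0.0564), and for marker-high against marker-low cells Gpr15 (0.0515), Il2 (0.0643), Ly6c1 (0.0917), Myc (0.0548), Plk1 (0.0726) and Zfp683 (0.0575).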

Other observations

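Genes outside the lists, chosen after their values were seen, are given as further values. Adora2a and Ptger2, the receptors through which adenosine and prostaglandin E2 raise cyclic AMP, were higher in marker-low cells, at 226, 194 and 206 CPM against 11, 20.8 and 23.6 CPM (3.50 ± 0.27, adjusted p = 5.30e-06) and 77.2, 69.7 and 91.6 CPM against 1.8, 3.91 and 1.34 CPM (5.08 ± 0.39, adjusted p = 5.56e-06). Their marker-low libraries agreed closely, library 2 included. Nfkbid, a nuclear inhibitor of NF-kB, was at 456, 864 and 654 CPM against 44.1, 34.3 and 42.6 CPM (4.03 ± 0.33, adjusted p = 9.79e-06) and lower again in marker-high cells (-3.38, adjusted p = 0.000497). Pdcd1lg2, which encodes the PD1 ligand PD-L2, was at 29.2, 15.7 and 21.5 CPM against 0.114, 0.326 and 0.334 CPM (6.42 ± 0.56, adjusted p = 1.53e-05). Anxa2, an annexin, was at 2584, 1315 and 1749.9 CPM against 23.5, 58.4 and 12.5 CPM (5.90 ± 0.58, adjusted p = 3.53e-05).

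Mcm10, a replication factor outside the lists, was higher as well, at 36.3, 69.3 and 48.4 CPM against 0.019, 0.0434 and 0.0209 CPM (10.73 ± 0.92, adjusted p = 1.16e-05). Among falls, Dtx1, a Notch target, was at 12.5, 5.38 and 17.8 CPM against 123, 111 and 105 CPM (-3.25 ± 0.47, adjusted p = 0.000651) and lower still in marker-high cells (-3.52, adjusted p = 0.00624). Pdk1, a kinase that restrains pyruvate entry into the mitochondrion, was at 6.34, 9.96 and 11.9 CPM against 67, 63.7 and 114 CPM (-3.11 ± 0.48, adjusted p = 0.00104), and Rhoh, a GTPase of receptor signalling, at 256, 162 and 209 CPM against 1088, 979 and 975 CPM (-2.28 ± 0.30, adjusted p = 0.000339). The Pdk1 call ended with the macrophage and neutrophil covariate (adjusted p = 0.052).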
